A study of Mus musculus with 201 samples.

Results

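The kinase genes *Pim1*, *Pim2*, *Pim3*, *Plk2*, *Plk3* and *Sik1* were followed in single dentate granule cells and nuclei of the mouse hippocampus. The 6 genes were chosen by name as kinases of families with activity-induced members, with earlier results of these data in view, from the 42802 gene symbols of the tables for nuclei after exploration of an unfamiliar, enriched cage (NE). All 6 have a row in each of the 3 pairs of tables. Because the difference between FOS+ and FOS- nuclei had a part in their choice, their values in that contrast are a description.

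PIM kinases are serine/threonine kinases that are active as soon as they are made, so that transcription and protein turnover set their activity, and they are best known as targets of cytokine signalling in blood cells. Polo-like kinases are best known from mitosis, but *Plk2* and *Plk3* are also immediate-early genes in neurons, and PLK2 acts on dendritic spines during homeostatic scaling. Salt-inducible kinases (SIK) belong to the AMPK-related family, are activated by LKB1 and phosphorylate CRTC coactivators and class IIa histone deacetylases. *Sik1* is itself a target of CREB, which places it in a feedback loop on cAMP signalling.

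The samples were 35 whole cells from Prox1-GFP mice treated with PTZ, which causes seizures by blocking GABA(A) receptors, 47 whole cells from saline-treated Prox1-GFP mice, and nuclei from C57BL/6 mice. The whole cells were dissociated with protease about an hour after injection and sorted as GFP+, where GFP is under *Prox1* control and so marks granule cells. The nuclei comprised 48 PROX1+/FOS+ and 48 PROX1+/FOS- nuclei from an NE mouse, sorted by antibody, and 23 NEUN+/PROX1+ nuclei from a home cage (HC) mouse. Both NE sorts shared the exposure, the tissue and the Dounce homogenization, and FOS protein is the label by which they were sorted. The titles of the FOS+ and of the FOS- nuclei carry different position codes. Whatever these codes mark cannot be told apart from the sort. The paper sets apart some FOS+ nuclei whose expression clustered with that of FOS- nuclei, and it left them out of its first comparison of the sorts. The labels do not mark these nuclei, so all sorted FOS+ nuclei that passed the filters form 1 group here. Each sample is 1 cell or nucleus, and the labels name no animal. Every group is therefore 1 mouse or 1 pool, the cells are not replicates of the condition, and no test between groups was run on the kinases or on any other gene.

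After the filters 30 PTZ cells, 38 saline cells, 40 FOS+ nuclei, 41 FOS- nuclei and 23 HC nuclei remained. Total counts ran from 67212 to 5129240 in the whole cells, from 63775 to 1060516 in the NE nuclei and from 107647 to 278779 in the HC nuclei. A gene counted as detected in a cell when its TPM (a level scaled to transcript length and to the total of the cell) was above 1. The granule cell and neuron markers *Prox1*, *Rbfox3*, *Calb1*, *Slc17a7* and *Camk2a* were present in every group, and every cell and nucleus had at least 1 of them. *Prox1* itself was detected in 33 of 40 FOS+ and 34 of 41 FOS- nuclei. The summed level of these markers went down to 7.88 TPM in HC nuclei and 95.7 TPM in PTZ cells. Shares carry exact 95% binomial intervals, and summed counts scaled to the summed total of the group (pooled CPM) carry exact 95% Poisson intervals. These intervals cover counting error only and say nothing of the spread between mice.

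The 6 genes are small and lie on 5 chromosomes. In the GENCODE annotation of GRCm38, *Pim1* (ENSMUSG00000024014) lies on chromosome 17 from 29490753 to 29496112 on the plus strand, with *Sik1* (ENSMUSG00000024042) on the same chromosome from 31844250 to 31855804 on the minus strand. *Plk2* (ENSMUSG00000021701) lies on chromosome 13 from 110395046 to 110400844 (plus), and *Plk3* (ENSMUSG00000028680) on chromosome 4 from 117128655 to 117133963 (minus). *Pim3* (ENSMUSG00000035828) lies on chromosome 15 from 88862186 to 88865726 (plus), and *Pim2* (ENSMUSG00000031155) on the X chromosome from 7878262 to 7883432 (plus). The longest consensus coding transcript has 6 exons in each *Pim* gene, 14 in *Plk2*, 15 in *Plk3* and 14 in *Sik1*. *Pim1* is overlapped by the antisense gene *Gm26885* and *Plk3* by *Tctex1d4* on the opposite strand. The library kit does not keep strand, so reads from the shared bases cannot be assigned to one of the pair. *Gm26885* had a summed count of 1 in the FOS+ nuclei and 10 in the FOS- nuclei, against 3499 and 3 for *Pim1*. *Tctex1d4* had 2 and 72, detected in 1 nucleus of each sort, against 425 and 0 for *Plk3*.

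Promoter windows of 250 bases before the start were available from RefSeq (GRCm38.p6) for 5 of the 6 genes. Those of *Plk2*, *Plk3* and *Pim1* are shown because these genes had the widest gaps in pooled CPM between FOS+ and FOS- nuclei. They run 5′ to 3′ along the gene and stop before the first annotated exon. Capitals mark TGACG or its complement, the half-site of the cAMP response element (CRE). The *Plk2* window is chr13:110394794-110395043 (plus strand), the *Plk3* window chr4:117133964-117134213 (minus strand), and the *Pim1* stretch chr17:29490535-29490752 (plus strand).
Plk2: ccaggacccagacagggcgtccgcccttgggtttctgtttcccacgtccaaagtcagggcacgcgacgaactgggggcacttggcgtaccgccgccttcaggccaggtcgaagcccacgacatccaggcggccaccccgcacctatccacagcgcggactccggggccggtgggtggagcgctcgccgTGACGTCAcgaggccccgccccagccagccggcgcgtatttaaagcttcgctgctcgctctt
Plk3: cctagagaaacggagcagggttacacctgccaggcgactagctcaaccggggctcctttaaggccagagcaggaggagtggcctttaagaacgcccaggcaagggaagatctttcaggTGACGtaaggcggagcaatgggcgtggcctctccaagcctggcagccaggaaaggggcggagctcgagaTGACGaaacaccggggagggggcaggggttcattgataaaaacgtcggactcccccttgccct
Pim1: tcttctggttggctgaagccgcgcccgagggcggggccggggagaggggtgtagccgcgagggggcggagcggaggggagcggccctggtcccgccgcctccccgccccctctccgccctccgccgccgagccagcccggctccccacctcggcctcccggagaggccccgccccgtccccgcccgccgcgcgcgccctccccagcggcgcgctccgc

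The *Plk2* window holds the full palindrome TGACGTCA, from 62 to 55 bases before the start. Among the members' windows it was the only one to do so, and 1.55% of all 32851 RefSeq windows of this length hold it on either strand. *Plk3* has TGACG at 2 places, the nearer one 63 bases before the start, and 17.8% of all windows hold TGACG. The match in *Plk2* is the palindrome read on both strands. RefSeq gives *Pim1* a pair of starts, and neither window holds these letters. In the window of the first start 82.4% of the bases are G or C, and the GC box GGGCGG is found 7 times, a motif that 32.7% of all windows hold at least once. The window of the second start, inside the gene, has 48% G or C and no GC box. No member's window holds TGANTCA, the AP-1 site (6.75% of all windows), the CArG box bound by SRF (1.47%) or TTCNNNGAA, the palindrome bound by STAT factors (7.02%). These matches describe letters in a short window and nothing about binding in these cells.

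In the NE nuclei 3 of the 6 kinase genes, *Pim1*, *Plk2* and *Sik1*, were detected in far more FOS+ than FOS- nuclei. *Plk3* appeared in 5 FOS+ nuclei and in no FOS- nucleus. *Pim2* and *Pim3* were found in similar small shares of both sorts.

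*Pim1*, a constitutively active serine/threonine kinase, was the sharpest of them. Its level ran from 0 to 701 TPM in the 40 FOS+ nuclei with a median of 76.7, and from 0 to 3.18 TPM in the 41 FOS- nuclei with a median of 0. It was detected in 29 of 40 FOS+ nuclei (72.5%, 56.1 to 85.4) and in 1 of 41 FOS- nuclei (2.44%, 0.0617 to 12.9). All 29 positive nuclei lay above the highest FOS- nucleus, and the other 11 FOS+ nuclei had a level of 0. The pooled CPM of *Pim1* was 242 (234 to 250) in FOS+ and 0.215 (0.0443 to 0.628) in FOS- nuclei. With only 3 reads in the FOS- group the ratio of 1126 has a counting interval from 385 to 5465. By difference in detection *Pim1* stood second of 14909 genes in these nuclei, behind only *Arc*.

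*Plk2*, the polo-like kinase of dendritic spines, had the highest level of the 6 genes in FOS+ nuclei. There it ran from 0 to 3564 TPM with a median of 702, and in FOS- nuclei from 0 to 433 TPM with a median of 0. It was detected in 37 of 40 FOS+ nuclei (92.5%, 79.6 to 98.4) and in 19 of 41 FOS- nuclei (46.3%, 30.7 to 62.6). Unlike *Pim1*, it was thus present in many FOS- nuclei, but at low level, with a median of 14.6 TPM among the 19 in which it was detected against 773 TPM among the 37. In 25 of 40 FOS+ nuclei *Plk2* exceeded the highest FOS- nucleus. Its pooled CPM was 1840 (1818 to 1862) against 32.4 (29.5 to 35.5), a ratio of 56.8.

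*Sik1*, the CREB-induced kinase of the AMPK-related family, was detected in 25 of 40 FOS+ nuclei (62.5%, 45.8 to 77.3) and in 13 of 41 FOS- nuclei (31.7%, 18.1 to 48.1). Its levels were much lower than those of *Plk2*, from 0 to 338 TPM with a median of 4.35 in FOS+ nuclei and from 0 to 17 TPM with a median of 0 in FOS- nuclei. The sorts overlapped, since only 8 of 40 FOS+ nuclei exceeded the highest FOS- nucleus. The pooled CPM of *Sik1* was 54.4 (50.6 to 58.3) in FOS+ and 3.80 (2.84 to 4.97) in FOS- nuclei, a ratio of 14.3, with 1 nucleus holding 34.3% of the FOS+ counts.

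*Plk3*, a stress-responsive polo-like kinase, was detected in 5 of 40 FOS+ nuclei (12.5%, 4.19 to 26.8) at 1.29 to 1452 TPM. It was detected in 0 of 41 FOS- nuclei, which allows a share of up to 8.60%. The summed FOS+ count of 425 against 0 makes it at least 137-fold higher, taking 3 counts over the FOS- group as the floor. Of those counts 58.8% came from 1 nucleus, and without it the bound was 56.1-fold. The overlapping gene *Tctex1d4* had 72 counts in FOS- nuclei, and whether any of them came from *Plk3* was not tested.

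The remaining *Pim* genes encode kinases that share many substrates with PIM1. *Pim2* was detected in 8 of 40 FOS+ nuclei (20%, 9.05 to 35.6) and in 7 of 41 FOS- nuclei (17.1%, 7.15 to 32.1). *Pim3* was detected in 6 of 40 (15%, 5.71 to 29.8) and in 4 of 41 (9.76%, 2.72 to 23.1). Where detected, *Pim2* had a median of 110 TPM in FOS+ and 279 TPM in FOS- nuclei, and *Pim3* of 167 and 165 TPM. No FOS+ nucleus exceeded the highest FOS- nucleus for either gene. Pooled CPM was 34.5 and 50.2 for *Pim2*, and 44 and 37.2 for *Pim3*, in FOS+ and FOS- nuclei. A few nuclei carry these sums. Without the nucleus with most counts in each sort the ratio of *Pim2* went from 0.687 to 1.24 and that of *Pim3* from 1.18 to 1.99.

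**Figure D1:**
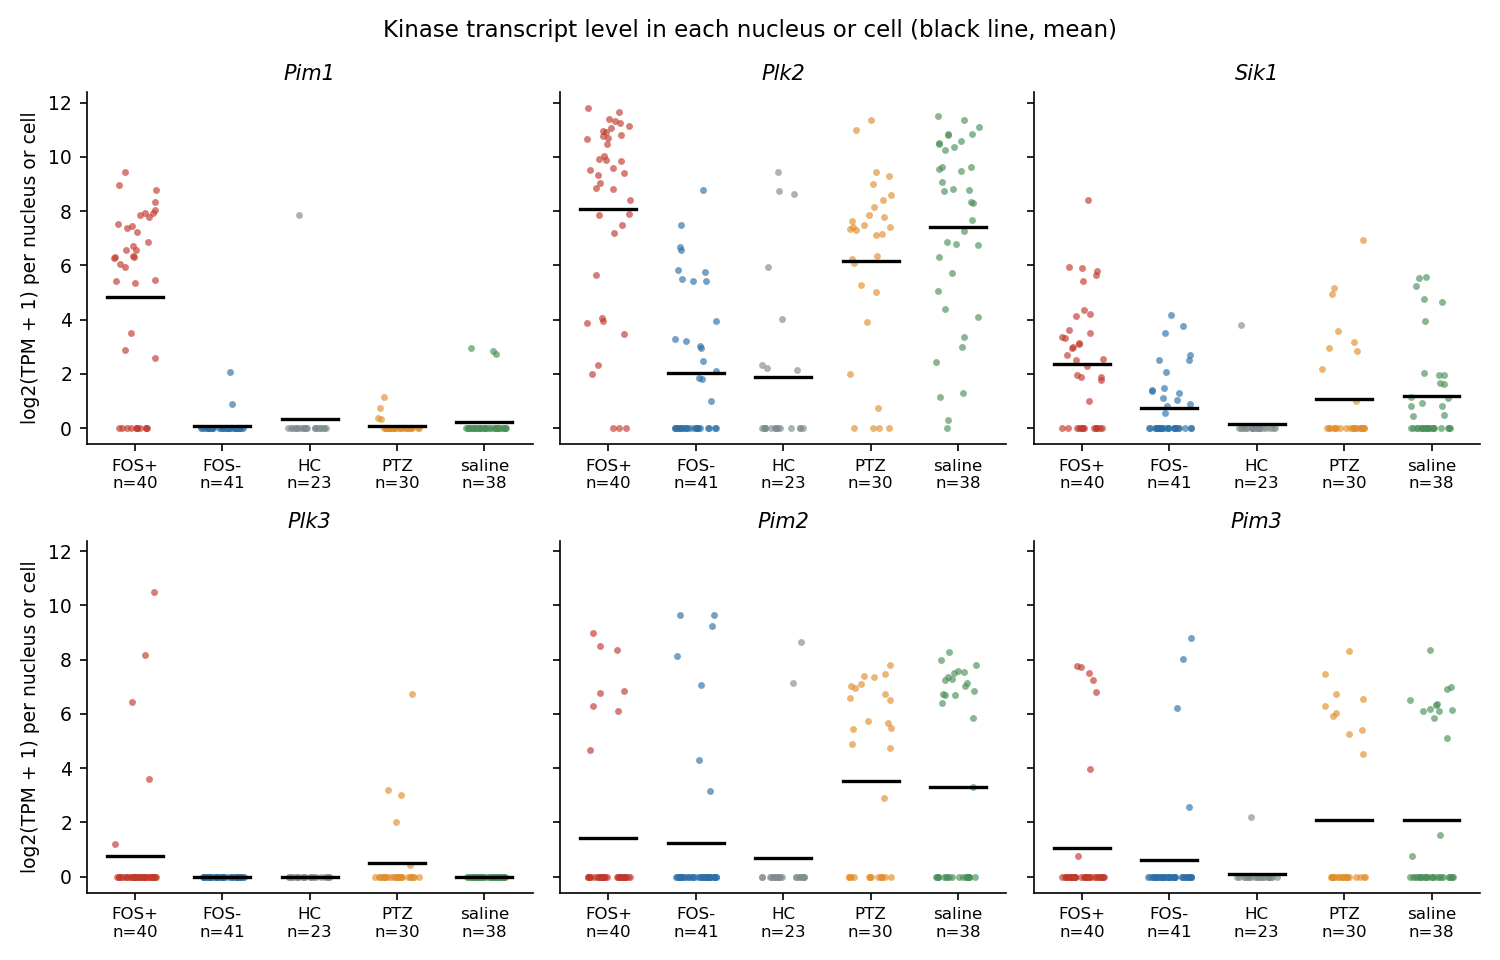
Level of each kinase transcript as log2(TPM + 1), 1 point per nucleus or cell, with a black line at the group mean, in FOS+, FOS- and HC nuclei and in PTZ and saline whole cells. *Pim1* is above 0 in 29 of 40 FOS+ nuclei and at 0 in most samples of the other groups, with 1 HC nucleus at 233 TPM and 3 saline cells at 5.67 to 6.67 TPM, while *Plk2* is high in FOS+ nuclei and in whole cells of both treatments.

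On the log2(TPM + 1) scale the mean level in FOS+ nuclei was 8.08 ± 3.56 (SD over 40 nuclei) for *Plk2*, 4.84 ± 3.33 for *Pim1*, 2.36 ± 2.22 for *Sik1*, 1.41 ± 2.93 for *Pim2*, 1.05 ± 2.52 for *Pim3* and 0.75 ± 2.32 for *Plk3*. No neighbours in that order differed by more than the larger of their SDs. In FOS- nuclei the means were 2.03 ± 2.65 for *Plk2*, 1.25 ± 2.97 for *Pim2*, 0.76 ± 1.18 for *Sik1*, 0.62 ± 2.07 for *Pim3* and 0.07 ± 0.35 for *Pim1*. *Pim1* thus moved from second place in FOS+ nuclei to the last detected place in FOS- nuclei.

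How far the members stand out was read against all 14909 genes with enough counts in these nuclei. A gene was called by size, with no test, when its pooled CPM differed at least 4-fold or its detection by at least 20 percentage points. By fold, 4 of the 6 members were higher in FOS+ nuclei (*Pim1*, *Plk2*, *Plk3* and *Sik1*), against 8.21% of all genes. *Plk3* had counts in 5 FOS+ and 0 FOS- nuclei, so it met the filter of at least 5 cells only through the FOS+ sort. By detection, 3 of 6 were higher (*Pim1*, *Plk2* and *Sik1*, by 70.1, 46.2 and 30.8 points), against 4.67% of all genes. The same 3 passed both rules, which 1.86% of genes did upwards and 1.54% downwards, and no member passed downwards. The contrast had a part in the choice of members, so nothing is read from these shares. Among the reference immediate-early genes *Fos*, *Arc*, *Egr1*, *Fosb*, *Junb*, *Npas4*, *Nr4a1* and *Atf3*, 7 of 8 passed both rules, all but *Npas4*.

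**Figure D2:**
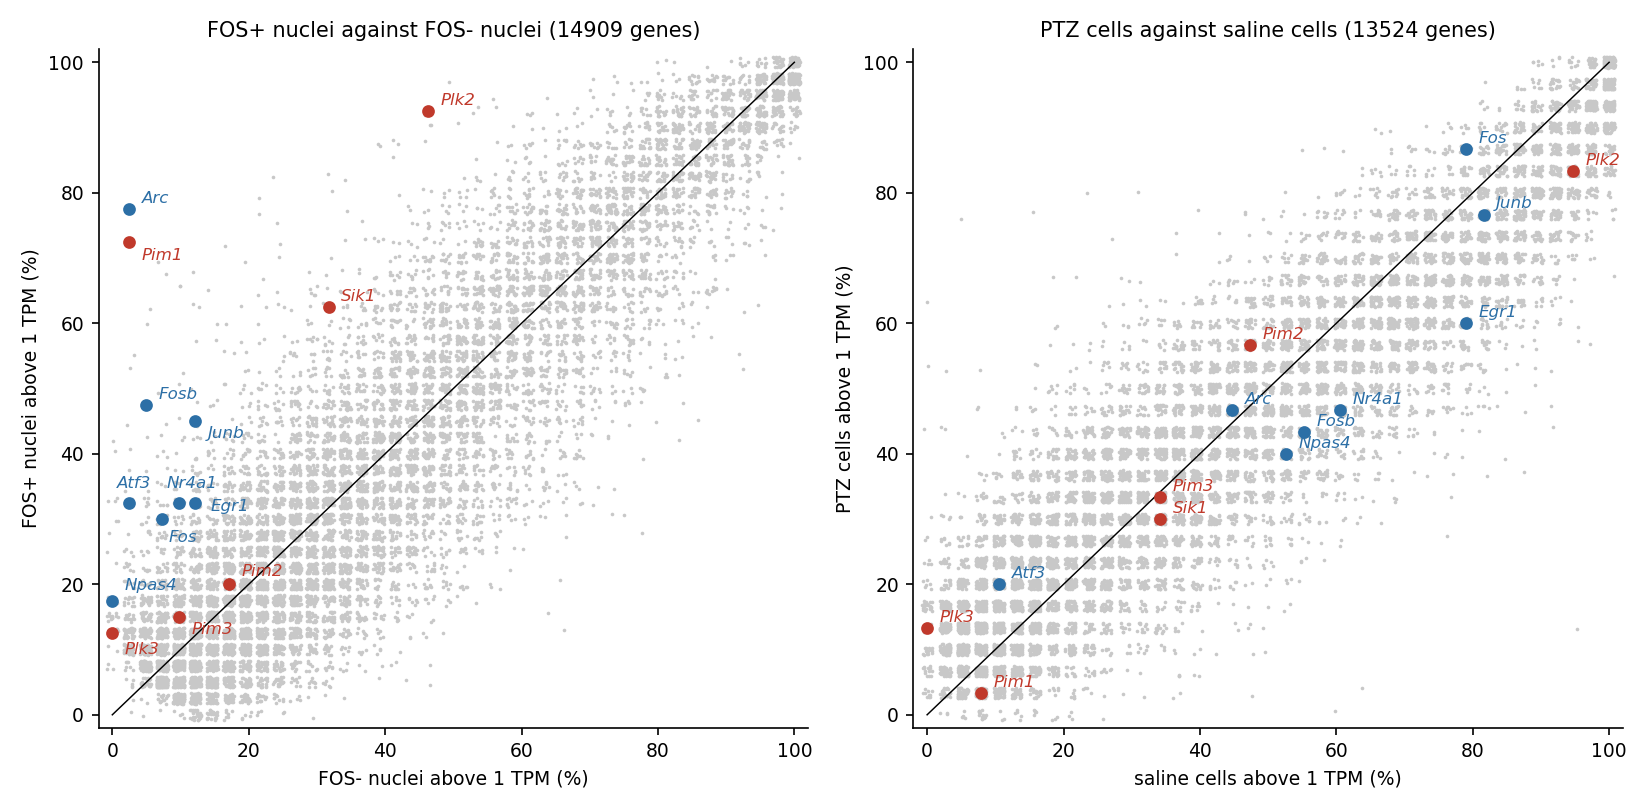
Share of FOS+ against FOS- nuclei (left) and of PTZ against saline cells (right) in which each gene was above 1 TPM, in percent. Grey points are all 14909 or 13524 genes with enough counts, slightly displaced at random to separate ties, red points the kinases, blue points the reference immediate-early genes, and the line marks equal shares. *Pim1* lies beside *Arc* at the upper left in nuclei and near the origin in whole cells.

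The NE nuclei were amplified under 4 conditions, which combine 1 or 10 µM template-switching oligonucleotide (TSO) with spike-ins diluted 1:200 or 1:2000. *Pim1* was detected in 10 of 10, 7 of 8, 4 of 11 and 8 of 11 FOS+ nuclei, in the order 1 µM at 1:200, 1 µM at 1:2000, 10 µM at 1:200 and 10 µM at 1:2000. In FOS- nuclei of the same conditions it was detected in 0 of 10, 0 of 10, 0 of 10 and 1 of 11. The direction was thus the same in every condition.

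*Plk2* was detected in 10 of 10, 8 of 8, 9 of 11 and 10 of 11 FOS+ nuclei, and in 5 of 10, 3 of 10, 4 of 10 and 7 of 11 FOS- nuclei. For *Sik1* the shares were 7 of 10, 5 of 8, 4 of 11 and 9 of 11 against 2 of 10, 3 of 10, 5 of 10 and 3 of 11, so that at 10 µM and 1:200 more FOS- than FOS+ nuclei had it. *Plk3* was seen only at 1 µM, in 2 of 10 and 3 of 8 FOS+ nuclei. All 4 FOS- nuclei with *Pim3* were of the condition with 10 µM and 1:2000, and without that condition *Pim3* had no counts in FOS- nuclei and was at least 157-fold higher in FOS+ nuclei. Without the condition with 1 µM and 1:2000 the pooled ratio was 28.5 for *Plk2* and, with 3 counts taken as the floor in FOS- nuclei, 428 for *Pim1*.

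Depth moved with the condition. At 10 µM and 1:200 the median total was 152332 in FOS+ and 79166 in FOS- nuclei, and at 1 µM and 1:2000 it was 687744 and 586358. The part of depth in the differences among conditions was not tested. When every nucleus was thinned to 50000 counts, *Pim1* was detected in 29 of 40 FOS+ and 0 of 41 FOS- nuclei, *Plk2* in 34 and 12, and *Sik1* in 19 and 7.

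**Figure D3:**
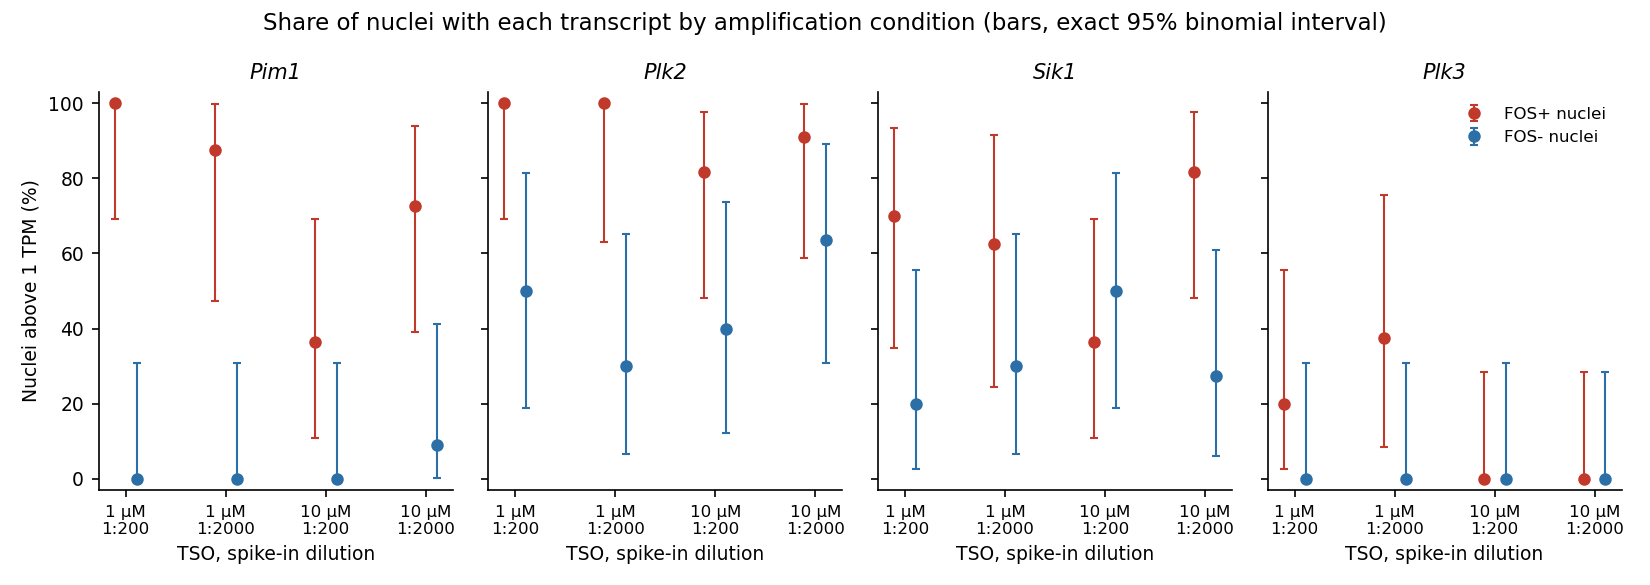
Share of FOS+ (red) and FOS- (blue) nuclei above 1 TPM for 4 of the kinases in each amplification condition, with exact 95% binomial intervals; the horizontal axis gives the TSO concentration and the spike-in dilution. *Pim1* and *Plk2* are higher in FOS+ nuclei in all 4 conditions, *Sik1* in 3 of 4, and *Plk3* appears only at 1 µM.

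Genes listed as markers of other cell types were found in both NE sorts. Interneuron markers (*Gad1*, *Gad2* and *Slc32a1*) were detected in 27 of 40 FOS+ and 17 of 41 FOS- nuclei with summed levels from 0 to 1360 and from 0 to 1313 TPM. Apart, *Gad1* was detected in 19 and 15 nuclei, *Gad2* in 14 and 7, and *Slc32a1* in 0 and 2. Among the GFP+ whole cells *Gad1* was detected in 21 of 30 PTZ and 33 of 38 saline cells, and *Gad2* and *Slc32a1* in 0 of either. Astrocyte markers (*Gfap*, *Aqp4*, *Slc1a3*, *Aldh1l1*) were detected in 32 and 25 nuclei (0 to 584 and 0 to 413 TPM, *Aldh1l1* at 0 in both). Microglial markers (*Cx3cr1*, *C1qa*, *C1qb*, *Csf1r*) were detected in 29 and 33 nuclei (0 to 1325 and 0 to 51.8 TPM, *C1qa* at 0 in both). Endothelial markers (*Cldn5*, *Pecam1*, *Flt1*) were detected in 19 nuclei of each sort (0 to 110 and 0 to 13.8 TPM, *Cldn5* at 0 in both). In HC nuclei the interneuron markers reached 3231 TPM and the astrocyte markers 2762 TPM. Astrocyte markers reached 3421 TPM in PTZ cells and 87.4 TPM in saline cells. The part of all these markers in the kinase values was not tested.

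Within the FOS+ sort the detection of the members overlapped in part. *Plk2* was present in 37 of the 40 nuclei, among them all 29 with *Pim1*, all 25 with *Sik1* and all 5 with *Plk3*. *Pim1* was present in 29 of the 40, among them 21 of the 25 with *Sik1* and all 5 with *Plk3*. *Plk3* and *Sik1* were both detected in 3 nuclei. *Pim1* was accompanied by *Arc*, which encodes a synaptic protein, in 28 of 29 nuclei. *Fos* mRNA was detected in only 12 of the 40 nuclei sorted for FOS protein, and all 12 had both *Pim1* and *Plk2*. Conversely, 17 of the 29 nuclei with *Pim1* had no detected *Fos* mRNA. *Pim1* was detected in 5 of the 8 nuclei with *Pim2* and in all 6 with *Pim3*. *Pim2* and *Pim3*, in 15 and 10 of the 81 NE nuclei, were not detected in the same nucleus. Shares this small leave little overlap even for unrelated genes. In whole cells both were detected in 11 of 68.

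Over the 40 FOS+ nuclei Pearson's r of log2(TPM + 1) was 0.80 for *Pim1* with *Plk2*, 0.51 for *Pim1* with *Sik1* and 0.49 for *Plk2* with *Sik1*. Against *Arc* it was 0.80 for *Pim1*, 0.83 for *Plk2* and 0.38 for *Sik1*, and against *Fos* 0.41, 0.35 and 0.53. These nuclei come from 1 sort and differ in amplification condition and depth, and the values are given as a description. They may include nuclei that the paper sets apart as similar to FOS- nuclei, and the part of such a mixture in r was not tested. Counting members per nucleus, 2 of 40 FOS+ nuclei had none of the 6, 4 had 1, 9 had 2, 13 had 3, 11 had 4 and 1 had 5. Of the 41 FOS- nuclei, 11 had none, 20 had 1, 7 had 2, 2 had 3 and 1 had 4.

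**Figure D4:**
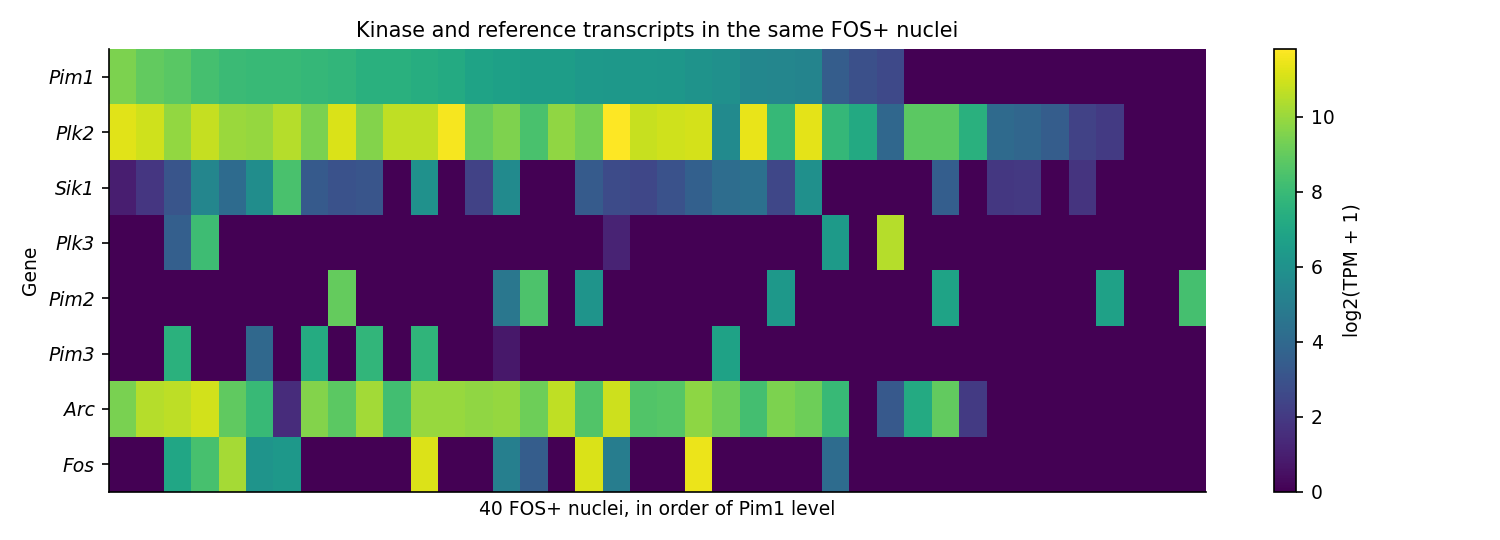
The 40 FOS+ nuclei as columns, in order of their *Pim1* level, with log2(TPM + 1) of the 6 kinases, *Arc* and *Fos* as colour. *Plk2* and *Arc* are high in nearly all of the 29 nuclei with *Pim1*, *Fos* mRNA is seen in 12 of those 29, and *Plk2* is also seen in 8 of the 11 nuclei without *Pim1*.

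The genes most like each member were ranked over all 81 NE nuclei by the same r. For *Pim1* they were *Arc* (0.90), *Plk2* (0.82) and *Spry2* (0.82), and within the FOS+ sort r was 0.80 for each. For *Plk2* they were *Arc* (0.84), *Pim1* (0.82) and *Ankrd33b* (0.76), with 0.83, 0.80 and 0.70 within the FOS+ sort. For *Sik1* they were *Kcnj2* (0.62), *Pim1* (0.59) and *1700016P03Rik* (0.58), with 0.67, 0.51 and 0.56 within FOS+ nuclei. Ranked within the FOS+ sort, *Kcnj2* stayed first for *Sik1*, and *Kdm6b* (0.63) and *Etv3* (0.57) took the other places, while *Pim1* had its same 3 genes and *Plk2* had 2 of its 3. The best matches were weaker for *Pim2*, with *Ctdnep1* at 0.49, *1700037C18Rik* at 0.45 and *Wdr90* at 0.45. For *Pim3* they were *Gm27177* at 0.51, *Ldb1* at 0.50 and *Aimp2* at 0.49. *Plk3* was detected in too few nuclei to be ranked. Over whole cells none of the 3 genes was shared for *Pim2*, *Pim3*, *Plk2* or *Sik1*.

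In the HC nuclei, from a mouse that stayed in its cage, the kinases other than *Plk2* were detected in few nuclei. These nuclei were prepared on another platform (Fluidigm C1), so their values are set beside the others without a comparison. They had a mean of 3237 genes above 1 TPM, beside 6185 in FOS+ and 6281 in FOS- nuclei. The part of this in the shares was not tested. *Plk2* was detected in 8 of 23 (34.8%, 16.4 to 57.3), from 0 to 702 TPM with a median of 0. Only 1 nucleus had *Pim1*, at 233 TPM, 1 had *Sik1*, at 12.8 TPM, 1 had *Pim3*, at 3.56 TPM, and 2 had *Pim2*, at 141 and 405 TPM. Pooled CPM was 149 for *Plk2*, 36.6 for *Pim2*, 16.1 for *Pim1*, 2.56 for *Sik1* and 0.256 for *Pim3*. Of the *Plk2* counts 95.7% came from 3 nuclei. *Plk3* was detected in 0 of 23, which allows a share of up to 14.8%. *Fos* was detected in none of these nuclei and *Arc* in 1. In 11 of 23 HC nuclei none of the 6 kinases was detected.

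**Figure D5:**
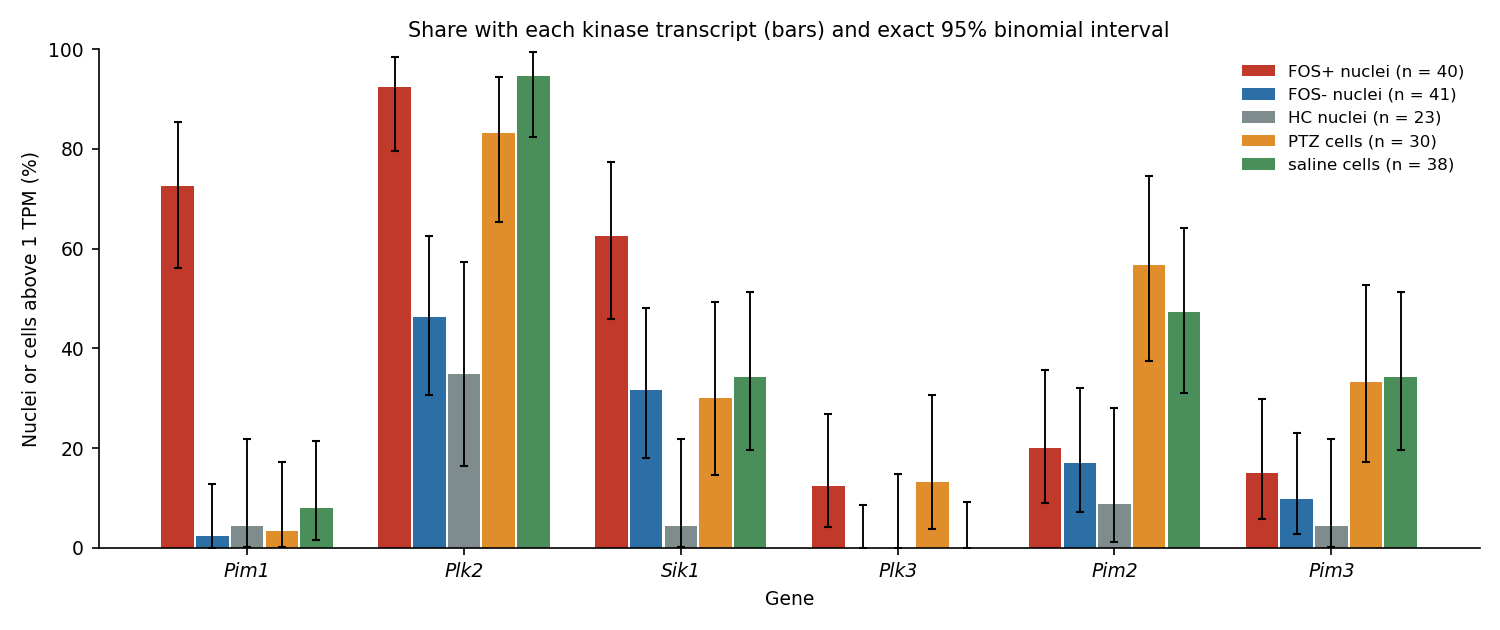
Share of nuclei or cells above 1 TPM for each kinase in the 5 groups (bars, in percent), with exact 95% binomial intervals as error bars. *Pim1* reaches 72.5% in FOS+ nuclei and at most 7.89% elsewhere, and *Pim2* and *Pim3* have their highest shares in whole cells.

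The whole cells set PTZ beside saline treatment in granule cells of separate mice. The paper reports that *Fos*, *Egr1* and *Arc* were expressed in dissociated whole cells whether or not PTZ was given. The saline cells are therefore not a resting baseline. Here the members split differently, and *Pim1* was nearly absent. It was detected in 1 of 30 PTZ cells (3.33%, 0.0844 to 17.2), at 1.20 TPM, and in 3 of 38 saline cells (7.89%, 1.66 to 21.4), at 5.67 to 6.67 TPM. The summed counts of 9 and 29 correspond to 0.215 CPM (0.0982 to 0.408) and 0.698 CPM (0.468 to 1.00), although the whole cells were sequenced more deeply than the nuclei. Other immediate-early genes were abundant in the same cells. *Fos* was detected in 26 of 30 PTZ and 30 of 38 saline cells, at 2997 and 2677 CPM, and *Arc* in 14 and 17. Thinned to 50000 counts, *Pim1* remained in 0 of 30 PTZ and 2 of 38 saline cells, against 29 of 40 FOS+ nuclei. Whole cells hold cytoplasmic RNA that nuclei lack, and only the NE nuclei were sorted by FOS protein. Whole cells and nuclei also differ in dissociation, read layout and mouse line. None of these can be told apart from the treatment here.

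*Plk2*, in contrast to *Pim1*, was detected in most whole cells of both treatments. Its level ran from 0 to 2650 TPM in PTZ cells with a median of 160, and from 0 to 2878 TPM in saline cells with a median of 377. It was detected in 25 of 30 PTZ cells (83.3%, 65.3 to 94.4) and 36 of 38 saline cells (94.7%, 82.3 to 99.4). The ranges overlapped throughout, and no PTZ cell exceeded the highest saline cell. Pooled CPM was 759 in PTZ and 991 in saline cells, and the mean on the log2(TPM + 1) scale was 6.18 ± 3.31 (SD over 30 cells) and 7.41 ± 3.40 (SD over 38 cells). The ratio of 0.765 was 0.607 without the cell with most counts in each group, 0.506 from the mean of per-cell CPM and 0.457 from the mean TPM. After thinning to 50000 counts per cell the levels were 543 and 1059 CPM.

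*Sik1* was detected in 9 of 30 PTZ cells (30%, 14.7 to 49.4) and 13 of 38 saline cells (34.2%, 19.6 to 51.4). Its pooled CPM was 20.8 and 11.2, with 48.2% of the PTZ counts in 1 cell, and the mean log2 levels of 1.10 ± 1.94 and 1.18 ± 1.79 lay within the spread over cells. *Plk3* was detected in 4 of 30 PTZ cells (13.3%, 3.76 to 30.7), at 3.07 to 105 TPM, and in 0 of 38 saline cells, which allows up to 9.25%. All 4 of those PTZ cells also had *Fos*, *Arc*, *Plk2* and *Sik1*. Its 271 counts against 0 make *Plk3* at least 89.6-fold higher in PTZ cells. A single cell held 67.9% of them, and without it the bound was 29.3-fold.

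*Pim2* was detected in 17 of 30 PTZ (56.7%, 37.4 to 74.5) and 18 of 38 saline cells (47.4%, 31 to 64.2), at 66.8 and 80.8 CPM. *Pim3* was detected in 10 of 30 (33.3%, 17.3 to 52.8) and 13 of 38 (34.2%, 19.6 to 51.4), at 56.2 and 50.6 CPM. Where *Pim2* was detected its median was 94.3 TPM in PTZ and 145 TPM in saline cells, and for *Pim3* it was 70.9 and 71.2 TPM. In whole cells *Pim2* was thus the most often detected *Pim* gene and *Pim1* the least, whereas in FOS+ nuclei *Pim1* was the most often detected.

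Of the 6 members 1, *Plk3*, was at least 4-fold higher in PTZ cells, against 5.48% of the 13524 genes with enough counts. *Plk3* had counts in 5 PTZ cells and 0 saline cells. It thus met the filter of at least 5 cells only through the PTZ cells, and nothing is read from its call. No member was 20 points higher in detection, against 3.31% of genes, and none passed both rules upwards (0.887% of genes) or downwards (0.436%). Of the reference immediate-early genes 0 of 8 passed both rules. Their mean log2(TPM + 1) nevertheless lay lower in PTZ than in saline cells for 7 of 8, from -0.46 for *Fos* to -2.24 for *Junb*, and *Egr1* was detected in 18 of 30 against 30 of 38 cells. The direction depended on the measure. By pooled CPM *Fos* and *Arc* were higher in PTZ cells, with ratios of 1.12 and 1.24. The rest of these 7 had ratios from 0.689 for *Fosb* to 0.948 for *Nr4a1*. The titles of the PTZ cells and of the saline cells carry different suffixes, and whatever these mark cannot be told apart from the treatment.

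Over the 68 whole cells the genes most like *Plk2* were *Egr1*, *Junb* and *Npas4*, with r of 0.67 for each. Ranked within the PTZ cells alone they were *Ak1* (0.74), *Poldip3* (0.73) and *Cplx1* (0.69), and no immediate-early gene of the reference list was among them. Within the 38 saline cells r of *Plk2* was 0.83 with *Egr1* and 0.78 with *Fos*, and within the 30 PTZ cells 0.42 and 0.43. The corresponding r with *Arc* was 0.64 and 0.38. These cells differ in depth and, as in the nuclei, r is a description.

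Relatives, substrates and regulators of the kinases were counted in 7 lists. In the NE nuclei none of the 43 genes in these lists that had enough counts passed both rules in either direction. Of all genes 1.86% passed upwards and 1.54% downwards, so lists of this length are not set apart by it. The medians of log2 fold were -2.01 for the other polo-like kinases (2 genes), -0.84 for the AMPK-related kinases and the LKB1 complex (14), 0.19 for SIK substrates (7), 0.01 for PLK2 substrates and partners (9), 2.26 for PIM substrates (3), 0.36 for PLK3 substrates (4) and 0.85 for JAK-STAT regulators of *Pim* genes (4). Over all 14909 genes it was -0.22, and over the 6 members 4.83.

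Close relatives had values of both directions. *Sik2*, the best expressed SIK gene in these nuclei, was detected in 39 of 40 FOS+ and 41 of 41 FOS- nuclei, at 827 and 589 CPM. *Sik3* was at 141 and 49.3 CPM, a ratio of 2.85, and was detected in 25 of 40 and 17 of 41, a difference of 21 points. *Plk4*, which drives centriole duplication, was detected in 21 of 40 and 13 of 41, a difference of 20.8 points, at 10.1 and 4.66 CPM. Both thus passed the rule on detection but not that on fold. *Plk1*, the mitotic member, was found in 1 of 40 and 2 of 41 nuclei, too few to be compared, at 9.34 and 1.5 CPM. *Plk5*, a polo-like kinase of neurons without mitotic function, lay the other way, with 3.18 CPM in 2 of 40 FOS+ nuclei and 112 CPM in 10 of 41 FOS- nuclei. In whole cells *Plk5* was abundant, at 273 CPM in 16 of 30 PTZ and 305 CPM in 31 of 38 saline cells.

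Among substrates, the CREB coactivators *Crtc1* and *Crtc3* were widely present, in 27 of 40 and 37 of 40 FOS+ and in 27 of 41 and 40 of 41 FOS- nuclei. *Hdac7*, which encodes a class IIa histone deacetylase, was at 11.1 CPM in FOS+ and 109 CPM in FOS- nuclei. The other genes of this class differed in both directions, with *Hdac4* at 62.5 and 90.5 CPM and *Hdac5* at 61.1 and 32.3 CPM. *Hdac9*, detected in 3 nuclei of each sort, was at 7.75 and 0.788 CPM. Of the PLK2 substrates that regulate Ras and Rap at synapses, *Rasgrf1* was at 1076 and 752 CPM and *Sipa1l1* at 217 and 298 CPM. Among the JAK-STAT regulators of *Pim* genes in other cells, *Stat3* was at 134 CPM in 37 of 40 FOS+ and 19.6 CPM in 32 of 41 FOS- nuclei, a ratio of 6.81. *Jak1* was at 145 and 92.7 CPM, *Jak2* at 43.7 and 21.1 CPM, and *Stat5a* at 0.761 and 1.58 CPM. *Stat5b* had 0 counts in FOS+ nuclei and 21 in FOS- nuclei, where 1 nucleus had it. *Myc* was detected in 4 FOS+ nuclei and no FOS- nucleus. Both were found in too few nuclei to be compared.

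In the whole cells 1 of 48 list genes passed both rules, against 0.887% of all genes upwards and 0.436% downwards. This gene was *Jak2*, a cytokine receptor kinase. It was at 7.33 CPM in 8 of 30 PTZ cells and at 1.59 CPM in 2 of 38 saline cells. The medians of log2 fold lay between -0.12 and 0.76 over the 7 lists, beside -0.02 for all 13524 genes and -0.06 for the 6 members. Of the genes in the 7 lists, only *Jak2* was named by the rule fixed for the lists. All other list genes named here were chosen after their values had been seen.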

How the data were processed

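For each of 82 whole cells, 96 NE nuclei and 23 HC nuclei the authors deposited an expected count and a TPM value per gene symbol. They trimmed the reads, aligned them with Bowtie 1.0.0 and quantified them with RSEM on mm10 with the Ensembl annotation. The deposited expected counts are RSEM's estimates of reads per gene without normalization. The deposited TPM values are scaled by the authors within each cell. Introns are counted only where a transcript annotation covers them. Here expected counts were summed per group and rounded.

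Cells with a total above 50000 and with more genes above 1 TPM than the mean minus 2 SD of their table were kept, and all 23 HC nuclei were kept although 1 was below the limit on genes. Reads carry no molecular identifiers. Genes entered the comparisons with a summed count of at least 30 and a count in at least 5 cells. The paper's methods use edgeR across cells. No such test was run here, because each group is 1 mouse or pool. The series text speaks of a single mouse, the paper of pools for the whole cells. Folds against a group at 0 use a floor of 3 counts. The genes named by rule are the 6 members, the 3 genes most like each of them among genes detected in at least 10 nuclei, the reference genes and the list genes past both size rules. Further list genes were chosen after their values had been seen. The members, lists and rules were chosen with earlier results of these data known. Alternatives were the detection limit, the scaling (TMM in edgeR 4.0.16, median of ratios), thinning, the filters, and leaving out cells or amplification conditions. Python 3.11, pandas and scipy were used. Some marker and list genes are not reported here.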

Additional observations from a re-analysis of the deposited data

How the results depend on the processing

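No alternative turned the direction of a difference of 20 points or 4-fold. The detection differences between FOS+ and FOS- nuclei ranged over 9 alternatives from 58.3 to 83 percentage points for *Pim1*, 39 to 55.7 for *Plk2* and 21.8 to 46.6 for *Sik1*. *Pim1* was at 72.5 points with detection above 5 TPM and after thinning to 50000 counts, 67.5 with detection at 5 counts, 83 without the condition with 10 µM TSO and 1:200, and 72.4 without that with 10 µM and 1:2000, where *Pim3* was at 10.3. *Plk2* was at 50.7 points with 5 counts and 55.7 thinned, and *Sik1* at 35.2 above 5 TPM, 42.6 with 5 counts and 30.4 thinned. For PTZ minus saline, *Pim1* was at -7.89 above 5 TPM and with 5 counts, and -5.26 thinned, and *Sik1* at 7.54 above 5 TPM and 10.9 thinned, against -4.21 as reported. With detection above 0 TPM *Pim1* turned from -4.56 to 5.44, and *Sik1* was at -17.4. The cause was not tested.

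Pooled ratios between FOS+ and FOS- nuclei ran from 428 to 1338 for *Pim1*, 28.5 to 74.6 for *Plk2*, 11.3 to 18.1 for *Sik1*, 0.370 to 1.88 for *Pim2* and 0.384 to at least 157 for *Pim3*, with at least 3 counts assumed in the FOS- sort. Between PTZ and saline cells they ran from 0.457 to 0.789 for *Plk2* and 1.34 to 1.90 for *Sik1*. TMM factors moved the median log2 fold of all genes by 0.25 in nuclei and 0.04 in whole cells, and all 4 members past 4-fold in nuclei stayed past it. Without the filter on low counts, 2286 rather than 1224 genes were 4-fold higher in FOS+ nuclei and 1898 rather than 741 in PTZ cells, as more genes were compared. With all cells kept, 312 rather than 696 genes were 20 points higher in FOS+ nuclei and 179 rather than 277 passed both rules. Both rules downwards in PTZ cells were passed by 59 genes as reported, 33 with all cells and 38 at 5 TPM. The tables keep 1 value per symbol, so isoforms were not analysed here.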
